A study of Homo sapiens with 18 samples.

Results

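The genes ECHDC3, PKLR, TCEAL2, GDA, SEC14L4, C3, TAF9B, DPEP3, CCDC169 and RGN were followed across human embryonic stem cells with and without Cas9 editing of ZNF263, which encodes a C2H2 zinc finger transcription factor. They are 10 of the 27130 genes in the count tables, and they were picked because these same libraries showed them near silent in some groups and expressed in others. Their own levels are therefore a description and carry no test.

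Polyadenylated RNA was sequenced in 18 libraries that form 8 groups. In H1 (WA01), an established embryonic stem cell line, clone 1-10 is labelled a homozygous ZNF263 knockout and was set against wild-type H1, with 3 libraries each. In H9 (WA09), another such line, clones 9-1 and 9-D are labelled homozygous knockouts and were set against wild-type H9, again with 3 libraries each. A further set has 1 library each of clone 1-5, labelled a heterozygous knockout, of clone 1-10 and of wild-type H1, called the single libraries here. Each knockout group is 1 clone, so that an effect of the genotype and a property of the clone cannot be told apart. The labels do not say whether replicates were separate cultures, so the p-values below measure the spread between these libraries, which may be technical.

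Library totals ranged from 9.66 to 17.7 M counts in clone 1-10 and from 12.3 to 15.3 M in wild-type H1. They ranged from 13.5 to 21 M in clone 9-1, from 14.3 to 18 M in clone 9-D and from 14.2 to 16.0 M in wild-type H9. The single libraries held 13.2 M counts for clone 1-5, 13.4 M for clone 1-10 and 11.1 M for wild type. ZNF263 itself stood at 32.1 to 35.6 CPM in clone 1-10, against 40.1 to 42.4 CPM in wild-type H1, where CPM is the count scaled to a library total of 1 M. It stood at 34 to 37.1 CPM in clone 9-1 and at 34.6 to 37.2 CPM in 9-D, against 41.1 to 45.3 CPM in wild-type H9. In the single libraries it stood at 31.6 CPM in clone 1-5 and 33.1 CPM in clone 1-10, against 39.8 CPM in wild type. The transcript was lower in every edited library and absent from none, and the labels do not give the edited part of the gene. All 6 of a list of pluripotency markers were above 1 CPM in all 8 groups. Their summed level ranged from 6910 to 7257 CPM in clone 1-10, against 6436 to 6902 CPM in wild-type H1, and from 5871 to 6124 CPM in 9-1 and 5941 to 6020 CPM in 9-D, against 5190 to 5298 CPM in wild-type H9. Of 8 fibroblast and feeder markers 4 to 6 were above 1 CPM, and they summed to 568 to 675 CPM in clone 1-10, against 626 to 657 CPM in wild-type H1, and to 748 to 819 CPM in 9-1 and 830 to 913 CPM in 9-D, against 864 to 901 CPM in wild-type H9. Most of the fibroblast and feeder sum came from THY1, COL1A1 and COL1A2, which averaged 393, 79.6 and 127 CPM in clone 1-10. DCN and LUM averaged at most 0.119 CPM in any group, and COL3A1, POSTN and S100A4 at most 7.09 CPM. The part of these marker levels in the results below was not tested.

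As background, the 10 genes have unrelated roles. ECHDC3 encodes a mitochondrial protein of the enoyl-CoA hydratase family, PKLR the liver and erythrocyte form of pyruvate kinase, GDA guanine deaminase and RGN the calcium-binding protein regucalcin. SEC14L4 encodes a protein of the SEC14 lipid-transfer family, C3 the central component of complement and DPEP3 a membrane-bound dipeptidase known from testis. TAF9B encodes a paralogue of the TFIID and SAGA subunit TAF9, TCEAL2 a protein of the TCEAL family, a cluster of X-linked genes, and CCDC169 a coiled-coil protein. Embryonic stem cell lines and their subclones are known to differ in the silencing of single genes, and in vertebrates the state of a silent gene is often tied to DNA methylation at CpG dinucleotides of its promoter.

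The windows from 250 bases before to 50 bases after the annotated start differed widely in CpG content among these genes. RefSeq windows of 300 bases (GRCh38.p14) were at hand for 9 of the 10 genes, all but C3, with 2 starts for PKLR. Of these, 4 windows are shown in lower case, 5′ to 3′ on the strand of the gene, with each CG in capitals. ECHDC3 (chr10:11742132-11742431, plus strand) and PKLR (chr1:155300903-155301202, minus strand) are shown because they had the same state in all 8 groups. TCEAL2 (chrX:102125429-102125728, plus strand) is shown because it was silent in the heterozygous clone too, and CCDC169 (chr13:36297765-36298064, minus strand) because its neighbours moved with it.
ECHDC3: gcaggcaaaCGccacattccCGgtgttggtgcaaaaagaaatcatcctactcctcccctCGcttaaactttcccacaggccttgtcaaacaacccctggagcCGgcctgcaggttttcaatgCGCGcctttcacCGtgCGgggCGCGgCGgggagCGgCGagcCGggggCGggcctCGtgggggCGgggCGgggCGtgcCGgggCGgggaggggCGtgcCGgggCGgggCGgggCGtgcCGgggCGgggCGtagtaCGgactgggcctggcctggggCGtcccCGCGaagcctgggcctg
PKLR: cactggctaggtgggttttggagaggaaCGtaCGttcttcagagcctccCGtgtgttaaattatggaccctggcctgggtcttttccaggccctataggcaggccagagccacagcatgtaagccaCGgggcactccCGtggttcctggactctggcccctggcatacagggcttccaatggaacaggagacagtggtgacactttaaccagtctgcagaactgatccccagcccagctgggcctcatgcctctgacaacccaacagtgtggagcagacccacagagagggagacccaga
TCEAL2: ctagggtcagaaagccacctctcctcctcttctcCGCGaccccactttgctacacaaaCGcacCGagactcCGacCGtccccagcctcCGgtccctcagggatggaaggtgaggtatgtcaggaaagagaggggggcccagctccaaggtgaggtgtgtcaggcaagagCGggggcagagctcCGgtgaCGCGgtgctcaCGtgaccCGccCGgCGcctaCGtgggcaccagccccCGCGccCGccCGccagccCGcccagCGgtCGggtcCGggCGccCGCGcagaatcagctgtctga
CCDC169: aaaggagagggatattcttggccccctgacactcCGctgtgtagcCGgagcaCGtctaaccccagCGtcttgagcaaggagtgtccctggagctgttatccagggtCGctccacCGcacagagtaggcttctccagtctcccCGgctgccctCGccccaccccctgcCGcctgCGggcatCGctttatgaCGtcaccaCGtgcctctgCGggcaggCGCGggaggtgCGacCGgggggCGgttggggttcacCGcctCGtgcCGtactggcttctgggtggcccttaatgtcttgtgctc
The ECHDC3 window held 33 CpG, more than 82.8% of the 35093 windows in the table. The PKLR window held 5 CpG, more than 29.7% of all windows, although both genes shared their on and off states. The window of TCEAL2 held 27 CpG and that of CCDC169 held 22, against a median of 14 over all windows. Among genes on (mean of at least 1 CPM) in at least 1 of the 8 groups, 11172 had a window. Taking the window with the most CpG for each, their median was 28 (quartiles 20 to 36), above both TCEAL2 and CCDC169. Of the windows not printed, GDA held 17 CpG, SEC14L4 18, TAF9B 22, DPEP3 24 and RGN 25. The letters GGAGGAGG, a run of the kind known for ZNF263 binding, were searched on both strands with overlapping matches counted, and 10.9% of all windows held them. Among these genes the letters were in the windows of TAF9B and DPEP3, once each and on the reverse strand.

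A group was called on for a gene where its mean was at least 1 CPM, and off below that. A gene was said to switch between a pair of groups where one was on and the other off and the mean CPM plus 0.1 differed at least 4-fold. By this rule the 10 genes were on in 43 of 80 combinations of gene and group. Clone 1-10 had 1 gene on, DPEP3, against 8 in wild-type H1. Clones 9-1 and 9-D each had 8 genes on, against 4 in wild-type H9. Among the single libraries clone 1-5 had 7 on and clone 1-10 had 1 on, against 6 in wild type. The replicated and the single libraries of clone 1-10 had the same state for all 10 genes, and so did clones 9-1 and 9-D.

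**Figure D1:**
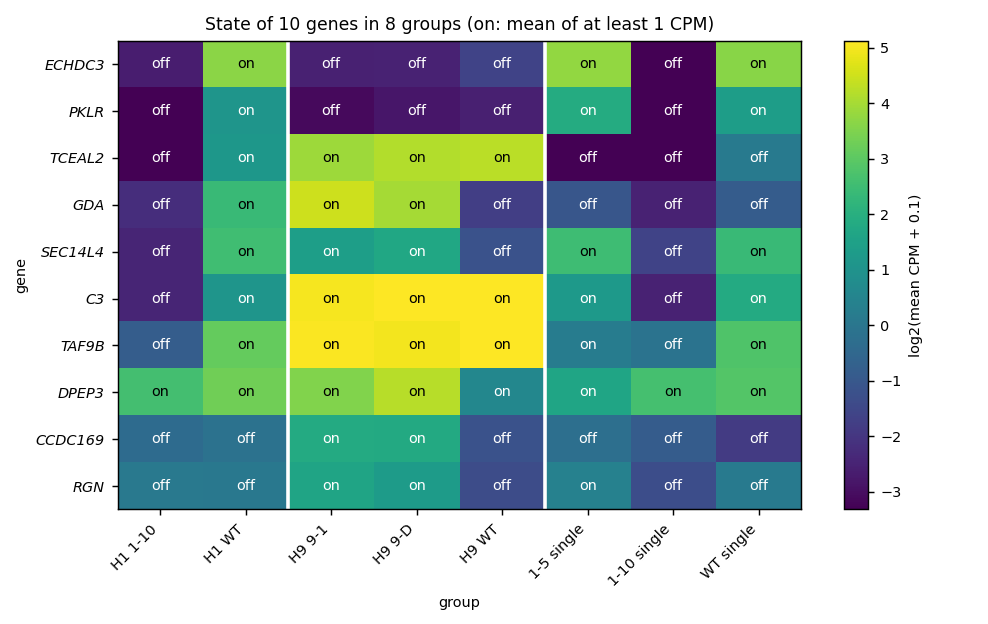
State of each gene (rows) in each of the 8 groups (columns), with the colour giving the log2 of the mean CPM plus 0.1. The words mark groups on at a mean of at least 1 CPM. Clone 1-10 is on for 1 gene in both of its columns, and clones 9-1 and 9-D have the same states throughout.

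Switches were rare over the transcriptome, and the 10 genes were selected on differences of state or level between these groups, so nothing is read from their share. DPEP3 switched in none of the comparisons. Of the 10 genes 7, which are ECHDC3, PKLR, TCEAL2, GDA, SEC14L4, C3 and TAF9B, were off in clone 1-10 and on in wild-type H1, where 0.181% of the 14395 genes on in either group switched. That background is 26 genes, of which 25 (0.174%) were off in clone 1-10. In H9, 4 genes, which are GDA, SEC14L4, CCDC169 and RGN, were on in clone 9-1 and off in wild-type H9, beside 0.286% of 14665 genes in either direction and 0.17% in this one. The same 4 were on in clone 9-D and off in wild-type H9, beside 0.253% of 14642 genes in either direction and 0.13% in this one. None of the 10 switched between 9-D and 9-1, where 0.00692% of 14450 genes did, that is 1 gene. Between the parents, ECHDC3, PKLR, GDA and SEC14L4 were off in wild-type H9 and on in wild-type H1, beside 1.32% of 14794 genes in either direction and 0.683% in this one. In the single libraries, ECHDC3, PKLR, SEC14L4, C3 and TAF9B were off in clone 1-10 and on in wild type, beside 0.294% of 14272 genes in either direction and 0.217% in this one. None switched between clone 1-5 and wild type, where 0.147% of 14324 genes did. The comparisons of 9-1 and 9-D share the wild-type H9 libraries.

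Some states lay close to the threshold. RGN averaged 0.977 CPM in clone 1-10, against 0.947 CPM in wild-type H1, and stood at 1.21 CPM in the single clone 1-5 library, against 0.987 CPM in single wild type. TCEAL2 stood at 0.987 CPM in single wild type and TAF9B at 1.06 CPM in clone 1-5. DPEP3 averaged 1.39 CPM in wild-type H9, with 2 of its 3 libraries above 1 CPM. By the rule it was thus on in all 8 groups, and its level is described as graded. That depends on the threshold, since at 2 CPM wild-type H9 would be off and both H9 clones on.

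**Figure D2:**
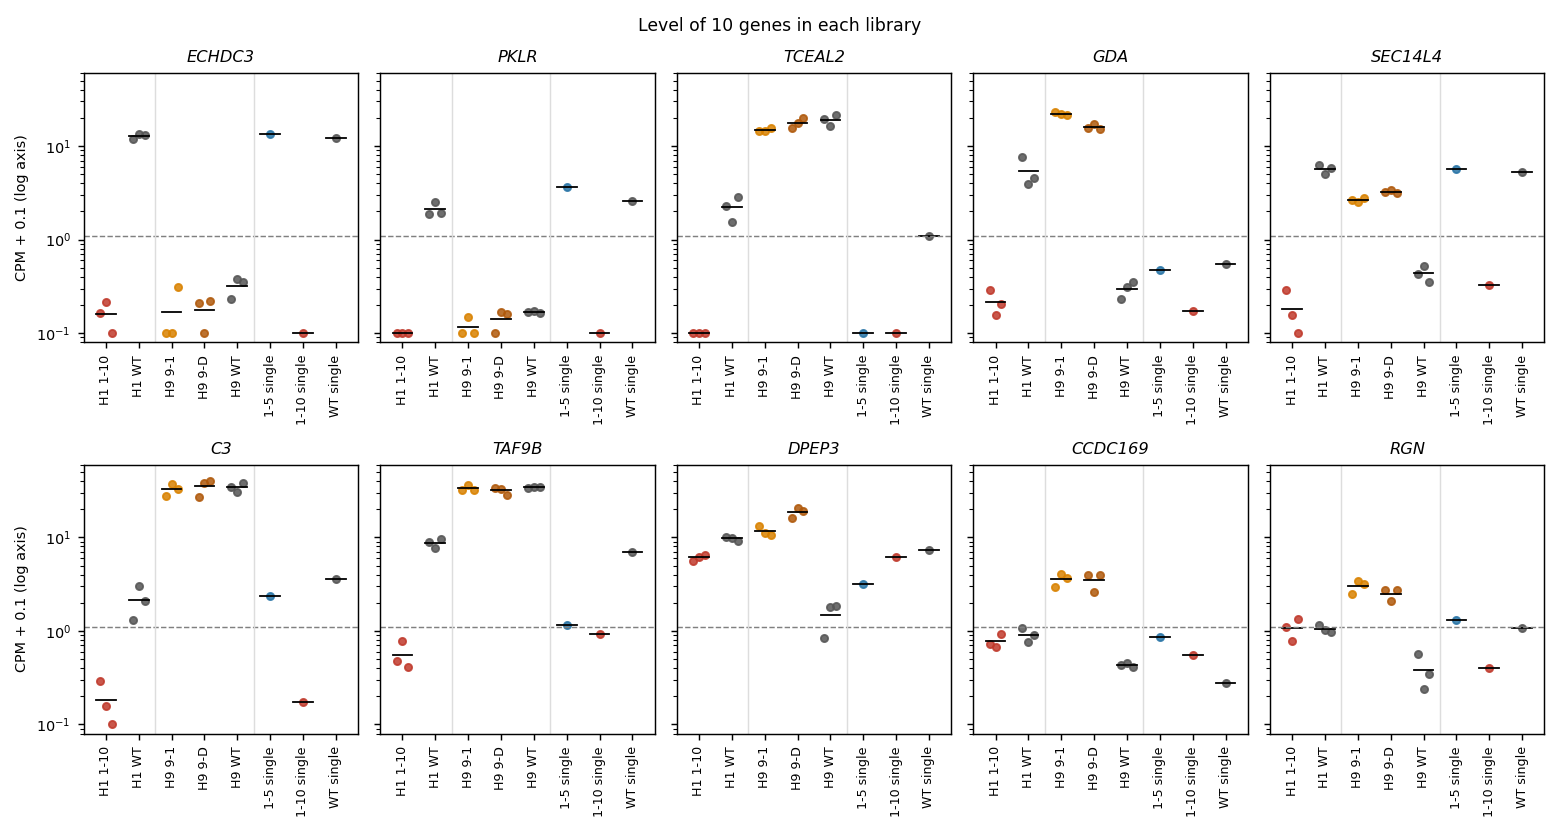
CPM plus 0.1 of each gene on a log axis, with 1 point per library and a line at the mean of each group. The dashed line is the threshold of 1 CPM. Clone 1-10 lies below it for all genes but DPEP3 and part of the RGN libraries.

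ECHDC3 was nearly absent from clone 1-10 and from H9. It had 0.0632, 0.113 and 0 CPM in clone 1-10, against 11.7, 13.4 and 12.9 CPM in wild-type H1. These are 3 reads against 527, a ratio of summed counts per library total of 183-fold lower in clone 1-10 (exact 95% counting interval 62.3 to 891). Every library of clone 1-10 was thus below every wild-type one. In the single libraries it had 13.3 CPM in clone 1-5 and 0 reads in clone 1-10, against 12.1 CPM in wild type, so that the heterozygous clone stood at the parental level. In H9 all 9 libraries were low, with 0 to 0.21 CPM in clone 9-1 and 0 to 0.12 CPM in 9-D, against 0.134 to 0.283 CPM in wild type. Wild-type H9 was 57.4-fold below wild-type H1 (31.0 to 120.5).

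PKLR followed the same states at lower levels. It had 0 reads in all 3 libraries of clone 1-10, against 1.78, 2.41 and 1.82 CPM in wild-type H1, or 0 against 84 reads. Set against the limit of 3 counts that a count of 0 allows over the group, it was at least 29.2-fold lower in clone 1-10. The single clone 1-5 library had 3.57 CPM and the single clone 1-10 library 0 reads, against 2.51 CPM in single wild type. In H9 it had 1 read in clone 9-1 and 2 reads in clone 9-D, against 3 reads in wild type, too few for a ratio. Pyruvate kinase of the muscle type, encoded by PKM, was far from silent, with 825 ± 58.5 CPM in clone 1-10 and 847 ± 64.2 CPM in wild-type H1 (SD, n = 3 each).

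GDA moved in opposite directions in the lines. It had 0.19, 0.0566 and 0.103 CPM in clone 1-10, against 7.45, 3.85 and 4.44 CPM in wild-type H1, 44.2-fold lower by summed counts (18.7 to 138). In H9 the order was the reverse. It had 23, 22 and 21.1 CPM in clone 9-1 and 15.4, 16.9 and 15 CPM in 9-D, against 0.134, 0.212 and 0.25 CPM in wild-type H9. Clone 9-1 was 110.5-fold (58.0 to 242) and clone 9-D 78.8-fold (41.3 to 173) above their parent, and all libraries of 9-D lay below those of 9-1. The single libraries did not share the H1 level, with 0.379 CPM in clone 1-5 and 0.0747 CPM in clone 1-10, against 0.449 CPM in wild type. Single wild type held 5 reads of GDA, whereas the replicated wild-type libraries held 59 to 92 each. Within H1, GDA was thus off in an unedited library as well.

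RGN was higher in the H9 clones, and its replicated H1 groups overlapped. It had 2.36, 3.33 and 3.09 CPM in clone 9-1 and 2.61, 1.96 and 2.63 CPM in 9-D, against 0.468, 0.141 and 0.25 CPM in wild-type H9. The clones stood 10.4-fold (5.89 to 20.0) and 8.43-fold (4.75 to 16.3) above wild type, with no overlap of libraries. In H1 it had 1.01, 0.679 and 1.24 CPM in clone 1-10, against 1.05, 0.914 and 0.874 CPM in wild type, and these overlapped. The single libraries had 1.21 CPM in clone 1-5 and 0.299 CPM in clone 1-10, against 0.987 CPM in wild type, which is 16 and 4 reads against 11. The single clone 1-10 library was 3.31-fold below the wild-type one, with a 95% counting interval of 0.98 to 14.2.

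SEC14L4 shared the reversal of GDA. It had 0.19, 0.0566 and 0 CPM in clone 1-10, against 6.24, 4.96 and 5.75 CPM in wild-type H1, 60.5-fold lower by summed counts (23.3 to 224). It had 2.58, 2.43 and 2.67 CPM in clone 9-1 and 3.11, 3.29 and 3.05 CPM in 9-D, against 0.334, 0.424 and 0.25 CPM in wild-type H9. The clones were 7.64-fold (4.46 to 14.1) and 9.46-fold (5.56 to 17.3) above their parent, and the groups of each line did not overlap. Unlike GDA, SEC14L4 was on in single wild type, with 5.54 CPM in clone 1-5 and 0.224 CPM in clone 1-10, against 5.21 CPM in wild type.

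C3 was low in H1 and higher in H9, and its loss was seen in clone 1-10. It had 0.19, 0.0566 and 0 CPM in clone 1-10, against 1.22, 2.94 and 1.97 CPM in wild-type H1, or 4 against 87 reads. In the single libraries it had 2.28 CPM in clone 1-5 and 0.0747 CPM in clone 1-10, against 3.50 CPM in wild type, or 30 and 1 reads against 39. In H9 it averaged 32.5 ± 4.69 CPM in clone 9-1 and 34.9 ± 7.25 CPM in 9-D, against 34.3 ± 3.88 CPM in wild type (SD, n = 3 each), with overlapping libraries. Wild-type H9 was 16.4-fold above wild-type H1 (13.2 to 20.6). In these bulk samples, fewer cells that express a gene and less of its RNA per cell cannot be told apart.

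Since C3, PKLR and RGN are known from liver, a list of 8 hepatocyte markers was read beside them. Of these, AFP and APOB alone were above 1 CPM in each of the 8 groups. The summed level of the list ranged from 7.45 to 7.76 CPM in clone 1-10, against 6.16 to 7.70 CPM in wild-type H1. It ranged from 9.43 to 10.3 CPM in clone 9-1 and from 7.57 to 11.1 CPM in 9-D, against 6.85 to 8.44 CPM in wild-type H9. FGB had 0 reads in all 18 libraries, and ALB averaged at most 0.152 CPM in any group.

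DPEP3 was graded. It had 5.49, 6.11 and 6.42 CPM in clone 1-10, against 10.0, 9.85 and 9.10 CPM in wild-type H1, 1.62-fold lower (1.38 to 1.91). It had 13.1, 11 and 10.4 CPM in clone 9-1 and 16.2, 20.3 and 18.9 CPM in 9-D, against 0.735, 1.70 and 1.75 CPM in wild-type H9. The clones stood 8.16-fold (6.28 to 10.8) and 13.1-fold (10.1 to 17.2) above their parent, and the groups did not overlap. Clone 9-D lay 1.61-fold above clone 9-1 (1.44 to 1.79), again with no overlap. The single libraries had 3.03 CPM in clone 1-5 and 6.05 CPM in clone 1-10, against 7.18 CPM in wild type. Here the heterozygous clone was the lower of the pair of clones. A list of 7 germ cell markers, read because the gene is known from testis, had 1 gene above 1 CPM in each group, DAZL, and summed to 2.24 to 8.76 CPM over all libraries.

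TAF9B and TCEAL2, both on the X chromosome, were low in clone 1-10 and in the heterozygous clone as well. TAF9B had 0.379, 0.679 and 0.31 CPM in clone 1-10, against 8.83, 7.64 and 9.39 CPM in wild-type H1, 17.6-fold lower (11.4 to 28.8). In the single libraries it had 14 reads in clone 1-5 and 11 in clone 1-10, against 76 in wild type. Clone 1-5 was 6.42-fold lower than wild type (3.6 to 12.3), so that both edited H1 clones shared the low level. In H9 TAF9B averaged 33.4 ± 2.56 CPM in clone 9-1 and 31.6 ± 3.02 CPM in 9-D, against 34.1 ± 0.607 CPM in wild type (SD, n = 3 each), with overlapping libraries. Its paralogue TAF9 averaged 52.9 ± 0.401 CPM in clone 1-10 and 52.1 ± 2.80 CPM in wild-type H1 (SD, n = 3 each), and did not pass the test (adjusted p = 0.631).

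TCEAL2 had 0 reads in all 3 libraries of clone 1-10, against 2.19, 1.44 and 2.77 CPM in wild-type H1, at least 30.2-fold lower. It had 0 reads in the single libraries of clones 1-5 and 1-10 too, against 11 reads in single wild type, which makes clone 1-5 at least 4.34-fold lower. No read of TCEAL2 was thus counted in any of the 5 libraries of edited H1 cells. In H9 it averaged 14.8 ± 0.579 CPM in clone 9-1 and 17.7 ± 2.13 CPM in 9-D, against 19.1 ± 2.60 CPM in wild type (SD, n = 3 each). The libraries of 9-1 lay below those of wild type, 1.30-fold by summed counts (1.17 to 1.43), and those of 9-D overlapped with them. Of the 10 genes, 3 are on the X chromosome, counting RGN. Over all genes, X held 3.62% of those on in at least 1 group and 4.47% of the 671 placed genes that switched between at least 1 pair of groups.

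CCDC169 was raised in both H9 clones. It had 2.88, 4 and 3.58 CPM in clone 9-1 and 3.89, 2.52 and 3.89 CPM in 9-D, against 0.334, 0.353 and 0.313 CPM in wild-type H9. The clones stood 10.7-fold (6.33 to 19.6) and 10.5-fold (6.19 to 19.2) above their parent, without overlap. In H1 it had 0.631, 0.566 and 0.828 CPM in clone 1-10, against 0.972, 0.653 and 0.801 CPM in wild type, with overlap. The single libraries held 10 reads in clone 1-5 and 6 in clone 1-10, against 2 in wild type. Reads of CCDC169 and of the read-through gene CCDC169-SOHLH2, whose annotated start is the same, may have been split or lost in the counting. The read-through gene averaged at most 0.0467 CPM in any group. Whether such a loss was alike in all groups was not tested.

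Measurements that the choice of these 10 genes did not use are their chromosomal neighbours, the 3 nearest RefSeq genes on each side, 60 in all. They were tested by edgeR's quasi-likelihood test, adjusted by Benjamini-Hochberg over all genes tested, with a gene called at an adjusted p under 0.05. In H1, 5 of 37 tested neighbours were called in clone 1-10 against wild type (1 higher, 4 lower), which is 13.5%, beside 12.3% of all 14897 genes tested (5.01% higher, 7.25% lower). In this fit the share near these genes was thus close to the background in H1. Of the 11 tested nearest neighbours edgeR called 0, of which 3 had an unadjusted p under 0.05, and DESeq2 called 0. The background itself moved with single libraries, since 1827 genes were called over all libraries, 1102 when clone 1-10 replicate 1 was left out and 949 when wild-type replicate 3 was. The neighbours called were 2 and 3 in those fits. With the replicate number as a block, 10 neighbours were called, beside 2926 genes in all.

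In H9 the share of tested neighbours called was above that of all genes, but that of the nearest ones was not in clone 9-1. In clone 9-1 against wild type 15 of 41 tested neighbours were called (12 higher, 3 lower), 36.6% beside 26.3% of all 15411 genes tested (12.8% higher, 13.5% lower). In clone 9-D against wild type 19 of 41 were called (16 higher, 3 lower), 46.3% beside 23.5% of all genes (11.5% higher, 12% lower). Without wild-type replicate 1 the neighbours called in 9-D were 12, and the genes called in all were 2831, against 3619 with it. Of the 12 tested nearest neighbours, 3 were called in 9-1 (25%) and 5 in 9-D (41.7%), with median log2 fold changes of −0.018 and −0.013. The median log2 fold change of all tested neighbours was 0.084 in 9-1 and 0.106 in 9-D, against −0.004 and −0.008 over all genes. Around the 4 genes that switched on in H9, 10 of 17 tested neighbours were called in 9-1 (9 higher, 1 lower) and 12 of 17 in 9-D (11 higher, 1 lower). Around the other 6 genes, 5 of 24 were called in 9-1 and 7 of 24 in 9-D. These 17 neighbours lie at 4 places in the genome, so they are not independent, and both comparisons share the wild-type libraries. Between 9-D and 9-1, edgeR called 0 of the 41 neighbours, of which 2 had an unadjusted p under 0.05 and DESeq2 called 0, while 0.305% of all genes were called.

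**Figure D3:**
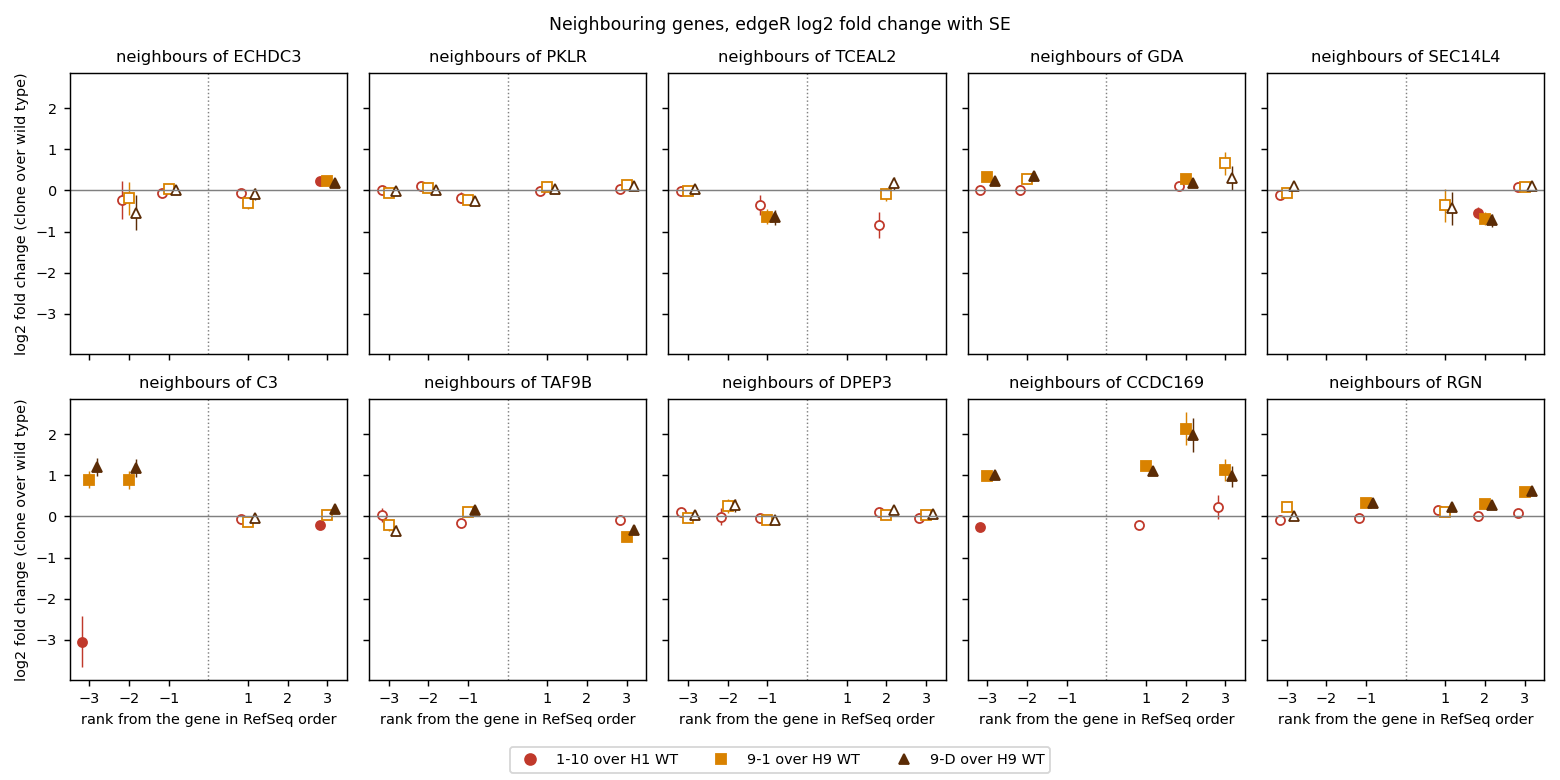
Log2 fold change (clone over wild type) with its SE for the neighbours of each gene, placed by rank before and after it in RefSeq order. Filled symbols passed the test and open ones did not. All tested neighbours of CCDC169 are filled and above 0 in both H9 clones.

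The neighbours of CCDC169 on chromosome 13 rose together in both H9 clones. All 4 of those tested there were called higher in each clone. SPG20, which encodes spartin, had 81.4, 87.0 and 89.8 CPM in clone 9-1 and 77.5, 79.3 and 78.7 CPM in 9-D, against 34.4, 41.3 and 37.6 CPM in wild-type H9. Its log2 fold change was 1.23 ± 0.07 in 9-1 (SE, adjusted p = 2.16e-16) and 1.11 ± 0.07 in 9-D (adjusted p = 4.82e-15). DCLK1, which encodes a doublecortin-like kinase, averaged 93.4 ± 5.43 CPM in 9-1 and 94.5 ± 8.14 CPM in 9-D, against 48.9 ± 2.87 CPM in wild type (SD, n = 3 each). CCNA1, the germ cell cyclin A, averaged 3.77 ± 1.42 CPM in 9-1 and 3.34 ± 0.769 CPM in 9-D, against 1.76 ± 0.438 CPM in wild type, and its call in 9-D is lost without 9-D replicate 1 (adjusted p = 0.0551). The antisense gene SPG20-AS1 had 1.33 to 1.54 CPM in 9-1 and 1.02 to 1.55 CPM in 9-D, against 0.212 to 0.50 CPM in wild type. The strand setting of the counting is not given in the sources used here, so reads of SPG20 and of its antisense partner may not be told apart. Over all of chromosome 13, a tally chosen after these values were seen, 14.1% of the 263 genes tested were higher in 9-1 and 11.8% in 9-D, near the 12.8% and 11.5% of all genes.

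**Figure D4:**
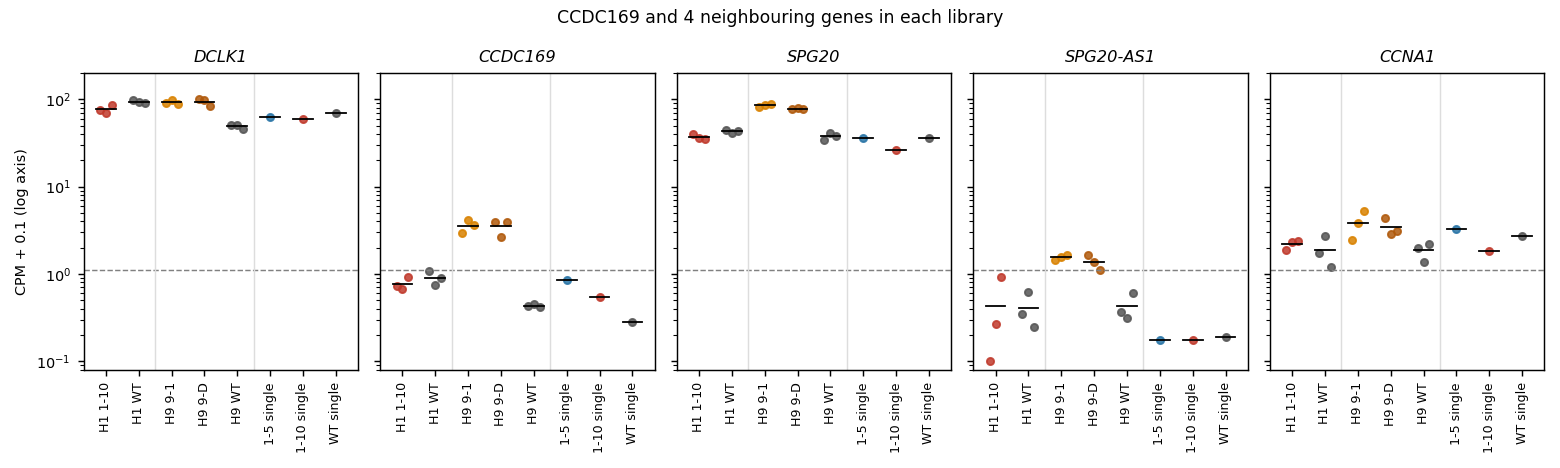
CPM plus 0.1 on a log axis in each library for CCDC169 and the 4 neighbours that passed the test, with a line at each group mean and a dashed line at 1 CPM. The H9 clones lie above wild-type H9 in all 5 panels, and the H1 groups lie closer together.

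In H1 none of these neighbours was called higher. DCLK1 was lower in clone 1-10 (77.9 ± 8.61 CPM, against 93.9 ± 2.98 CPM in wild-type H1, SD, n = 3 each), by −0.24 ± 0.07 in log2 fold change (SE, adjusted p = 0.013). It loses that call without clone 1-10 replicate 1 (0.0654), clone 1-10 replicate 2 (0.0575) or wild-type replicate 1 (0.0593). SPG20 had 34.8 to 39.7 CPM in clone 1-10, against 41.7 to 44.9 CPM in wild-type H1, and was not called.

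Around RGN, 3 of the tested neighbours were higher in clone 9-1 and 4 in clone 9-D. UBA1, the ubiquitin-activating enzyme, averaged 1077 ± 35.8 CPM in 9-1 and 1081 ± 39.8 CPM in 9-D, against 734 ± 6.17 CPM in wild-type H9 (SD, n = 3 each), with log2 fold changes of 0.59 ± 0.05 and 0.61 ± 0.05 (SE, adjusted p = 3.36e-11 and 1.71e-11). RBM10, which encodes an RNA-binding splicing regulator, and JADE3 were higher in both clones, with log2 fold changes from 0.29 to 0.34. NDUFB11, a subunit of respiratory complex I, was higher in 9-D (0.23 ± 0.07, adjusted p = 0.00963) and loses that call without wild-type replicate 1 (adjusted p = 0.064). The X chromosome as a whole, a tally chosen after these values were seen, had 19.8% of 514 genes higher in 9-1 and 21.4% in 9-D, against 12.8% and 11.3% on the other chromosomes. The part of that shift in the RGN neighbours was not tested.

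Around GDA, ABHD17B, a depalmitoylase, and ZFAND5, a zinc finger protein of protein turnover, were higher in both H9 clones, with log2 fold changes from 0.19 to 0.33. C9orf85 was higher in 9-D (0.35 ± 0.12, adjusted p = 0.0292). The calls of ABHD17B (adjusted p = 0.0833) and C9orf85 (adjusted p = 0.175) in 9-D are lost without wild-type replicate 1, as is that of C9orf85 without wild-type replicate 3 (0.0651), without 9-D replicate 1 (0.123) and under DESeq2 (0.0576). These changes were small beside the ratios of GDA itself.

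Next to SEC14L4, GAL3ST1, a galactose sulfotransferase, moved against that gene in H9. It averaged 5.99 ± 0.958 CPM in 9-1 and 5.76 ± 1.53 CPM in 9-D, against 9.80 ± 0.773 CPM in wild-type H9 (SD, n = 3 each), with log2 fold changes of −0.69 ± 0.16 and −0.73 ± 0.16 (SE, adjusted p = 0.000955 and 0.000555). In H1, where SEC14L4 was off in the clone, GAL3ST1 averaged 7.53 ± 2.16 CPM in clone 1-10 and 11.6 ± 0.259 CPM in wild type. It was called lower there (adjusted p = 0.0127) and loses the call without clone 1-10 replicate 1 (0.0654) or replicate 3 (0.0792).

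Next to C3, TNFSF9, the ligand 4-1BBL, had 0.253, 0.0566 and 0 CPM in clone 1-10, against 1.46, 0.783 and 0.947 CPM in wild-type H1. Its log2 fold change was −3.05 ± 0.61 (SE, adjusted p = 0.000835), and by the rule it switched off. TNFSF9 and CD70, another ligand of the tumour necrosis factor family, were higher in both H9 clones. TNFSF9 averaged 4.89 ± 1.19 CPM in 9-1 and 6.11 ± 0.972 CPM in 9-D, against 2.75 ± 0.933 CPM in wild-type H9. CD70 averaged 4.44 ± 1.29 CPM in 9-1 and 5.56 ± 1.03 CPM in 9-D, against 2.55 ± 0.754 CPM in wild-type H9 (SD, n = 3 each), and its call in 9-1 is lost without 9-1 replicate 2 (adjusted p = 0.0756). The other neighbours called in H1 were UPF2, near ECHDC3 and a factor of nonsense-mediated decay, which was higher in clone 1-10 (0.23 ± 0.06, adjusted p = 0.0136), and TRIP10, near C3, which was lower (−0.22 ± 0.07, adjusted p = 0.0231). UPF2 loses its call without clone 1-10 replicate 1 (0.147) or wild-type replicate 3 (0.0979). TRIP10 loses it without any one library other than clone 1-10 replicate 2 (adjusted p from 0.0515 to 0.174).

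The genes listed as related to the 10 genes, 81 in the tables, were called at shares near those of all genes. They are paralogues and pathway partners, except that those listed for CCDC169 are mostly genes beside it. In clone 1-10 against wild-type H1, 7 of 61 tested were called (4 higher, 3 lower), 11.5% beside the 12.3% of all genes, and none by as much as 2-fold, beside 1.38% of all genes. In clone 9-1 against wild-type H9, 21 of 67 were called (13 higher, 8 lower), 31.3% beside 26.3%. In clone 9-D against wild-type H9, 19 of 67 were called (13 higher, 6 lower), 28.4% beside 23.5%. Between 9-D and 9-1, edgeR called 0 of 67, of which 1 had an unadjusted p under 0.05, and DESeq2 called 0. Of those listed for CCDC169, the 3 tested, SPG20, DCLK1 and CCNA1, are also its neighbours. All 3 were called higher in each H9 clone. SOHLH2 and CCDC169-SOHLH2, untested, are on both lists too, as are TCEAL6, BEX5, SEC14L3, SEC14L6 and DPEP2.

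By role, the 12 partners of TAF9B in TFIID and SAGA were all tested, and none was called by edgeR or DESeq2 in clone 1-10, 9-1 or 9-D against its parent, with 3, 0 and 1 at an unadjusted p under 0.05. Of the TCEAL and BEX genes related to TCEAL2, 10 were tested in each line and 1 was higher in clone 1-10, 4 in clone 9-1 and 4 in clone 9-D, with none lower. Over all genes tested, 5.01%, 12.8% and 11.5% were higher in these clones. On the X chromosome, where TCEAL2 lies, the shares were 6.26%, 19.8% and 21.4%. The part of the X chromosome in these counts was not tested. TCEAL1 averaged 4.92 ± 0.248 CPM in 9-1 and 5.83 ± 0.15 CPM in 9-D, against 3.05 ± 0.197 CPM in wild-type H9 (SD, n = 3 each). Among the partners of PKLR in glycolysis, 3 of 8 were called higher in each H9 clone. PKM and PFKP had log2 fold changes from 0.40 to 0.50, and PFKL had 0.21 in 9-1 and 0.18 in 9-D. The calls of PFKL are lost without wild-type replicate 2 in both clones (adjusted p = 0.0794 in 9-1 and 0.151 in 9-D), in 9-1 without 9-1 replicate 3 (0.072), and in 9-D without 9-D replicate 3 (0.0628) or wild-type replicate 3 (0.058). In clone 1-10, none of the 8 was called by edgeR or DESeq2, with 3 at an unadjusted p under 0.05. Of the purine enzymes listed for GDA, PNP, purine nucleoside phosphorylase, was higher in clone 1-10 and in both H9 clones, with log2 fold changes of 0.42, 0.28 and 0.27. XDH, which acts downstream of guanine deaminase, was lower in 9-1 (−0.81, adjusted p = 0.0059, which is 0.0995 without wild-type replicate 1) and was not called in 9-D (adjusted p = 0.121) or in clone 1-10 (adjusted p = 0.715).

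Among the complement genes listed for C3, 5 were tested in H1 and none was called by edgeR or DESeq2, with 2 at an unadjusted p under 0.05, while C5 and C1R were lower in both H9 clones. The call of C1R in 9-D is lost without 9-D replicate 1 (adjusted p = 0.0639) or wild-type replicate 2 (0.0747). C5, the component that follows C3, averaged 0.319 CPM in 9-1 and 0.573 CPM in 9-D, against 1.68 CPM in wild-type H9. Its libraries had 0.369, 0.238 and 0.351 CPM in 9-1 and 0.611, 0.631 and 0.479 CPM in 9-D, against 1.47, 1.62 and 1.94 CPM in wild-type H9, without overlap. The log2 fold changes of C5 were −2.38 in 9-1 (adjusted p = 1.17e-05) and −1.49 in 9-D (adjusted p = 0.0012), while C3 itself overlapped between those groups. Among the peptidases listed for DPEP3, DPEP1, the renal dipeptidase, averaged 0.652 CPM in 9-1 and 0.671 CPM in 9-D, against 1.96 CPM in wild-type H9, with log2 fold changes of −1.51 (adjusted p = 0.00163) and −1.50 (adjusted p = 0.00199). The paralogue was thus lower in the clones in which DPEP3 was high. Of the genes listed for RGN, H6PD, hexose-6-phosphate dehydrogenase, was lower in both H9 clones, with log2 fold changes of −0.58 in 9-1 and −0.75 in 9-D. It was also called lower in clone 1-10 (−0.39, adjusted p = 0.0231), where RGN overlapped with wild type. That call is lost without clone 1-10 replicate 1 (0.0912), wild-type replicate 1 (0.0785) or wild-type replicate 3 (0.0936) and under DESeq2 (0.0669).

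DPEP3 shared its pattern, on in all 8 groups, with 13195 other genes, and the other 9 genes shared theirs with far fewer. ECHDC3 and PKLR had the same pattern, as did C3 and TAF9B. In the pattern of ECHDC3 and PKLR, wild-type H1 and the single clone 1-5 and wild-type libraries were on and the other 5 groups off. Both genes shared it with 13 genes outside the 10 followed here. Counting only genes outside the 10, C3 and TAF9B shared theirs with 21. TCEAL2 shared its pattern with 33 genes, CCDC169 with 56, GDA with 3, RGN with 1 and SEC14L4 with none. Within each pattern, likeness was measured by Pearson's r of log2(CPM + 0.5) over the 18 libraries, which share line and clone, so that r is a description. For ECHDC3 and PKLR the closest autosomal or X-linked genes were NAP1L6 (r = 0.98 for both) and HTR1A, a serotonin receptor (r = 0.929 and 0.92). NAP1L6 averaged 0.232 CPM in clone 1-10 and 4.95 CPM in wild-type H1, and at most 0.137 CPM in each H9 group. A Y-linked gene was closer still, and its levels are not given.

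TCEAL2 was most like MASP1, a lectin pathway protease (r = 0.958), TNFSF9 (r = 0.938) and OR52A1 (r = 0.934). C3 and TAF9B both had AOC3, an amine oxidase, among their 3 closest genes (r = 0.912 and 0.863). CCDC169 was most like MT1H, a metallothionein (r = 0.921), FGF4 (r = 0.908) and AIRE (r = 0.907). GDA was less closely matched, with GATA6 first (r = 0.794), and RGN had LGALS12 alone (r = 0.678). DPEP3, on in all groups, was most like ALPK3 (r = 0.916), which averaged 75.1 CPM in 9-1 and 71.7 CPM in 9-D, against 12.7 CPM in wild-type H9.

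A list of 9 genes, published as differently methylated between embryonic and induced pluripotent stem cell lines, was read for contrast. The list rests on DNA methylation, whereas only RNA was measured here. Of the 9 genes, 6 were on in all 8 groups, 1 was off in all, and TMEM132C and CSMD1 switched between some pair of groups. Over all genes 700 of the 15134 on in at least 1 group did so.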

How the data were processed

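Counts of reads per gene in 3 tables, as deposited by the authors, were the only values used. The submitters' processing notes name STAR, featureCounts, DESeq2 and the build hg19, without versions; strand settings are not given in the sources used here. Columns were matched to samples by their names. The members and gene lists were chosen with earlier results of these data known. Neighbours named are those that passed the test where their gene switched state, related genes those that switched or passed with at least 2-fold, and look-alikes the 3 with the highest r in the same state pattern, of which 1 is not reported here. PKM, TAF9, TCEAL1, PFKL, PFKP, PNP, XDH, C1R, H6PD, CD70 and DCLK1 in H1 were named after their values were seen.

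CPM is the count scaled to a library total of 1 M over all 27130 genes. Ratios of members are of summed counts per summed library total, with exact 95% intervals, and a count of 0 was set at 3 counts over the group. Intervals and limits cover counting error only. Other genes were tested with edgeR 4.0.16 (R 4.3.3) on the counts, with the quasi-likelihood test, TMM scaling, filterByExpr by group and Benjamini-Hochberg adjustment over all genes tested. The H1 fit held 6 libraries and the H9 fit 9. SE was derived from the F statistic, as the size of the log2 fold change over the root of F. The filter kept all 10 genes in H1 and 8 in H9, without ECHDC3 and PKLR. The scripts were tested on simulated data. Alternatives were DESeq2 1.42.0, its size factors, no filter, a replicate block, leaving out each library, 1 nearest neighbour, and thresholds of 0.5 and 2 CPM. Between replicates, chi-square per gene ranged from 1.80 to 5.61, and between single and replicated libraries of 1 genotype from 5.78 to 9.10, so no library was a duplicate. Symbols were matched to RefSeq (GRCh38.p14) for 25649 genes, 24337 by symbol and 1312 by an older name, and that build served for names, neighbours and promoter windows only.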

Additional observations from a re-analysis of the deposited data

Results flagged for a closer look

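Among the 10 genes, their neighbours, the related genes and the genes most like them in pattern, there were 7 in which every library of clone 1-10 lay below every wild-type H1 library while every library of both H9 clones lay above every wild-type H9 library. The difference was not tested in any of them, and GDA, SEC14L4 and DPEP3 were chosen on these levels. On the scale of log2 of the mean CPM plus 0.1, the ratio of both H9 clones over wild-type H9 minus that of clone 1-10 over wild-type H1 was 10.62 for GDA, with ratios of 5.99 in H9 and −4.63 in H1. The same difference was 7.742 for SEC14L4 (2.76 in H9 and −4.98 in H1) and 4.011 for DPEP3 (3.33 in H9 and −0.68 in H1). Among neighbours it was 3.494 for TNFSF9 (0.98 in H9 and −2.52 in H1), 1.36 for SPG20 (1.12 in H9 and −0.24 in H1) and 1.21 for DCLK1 (0.94 in H9 and −0.27 in H1). SPG20 and DCLK1 lie beside CCDC169, and TNFSF9 lies beside C3. The difference was 3.202 for AIRE (2.19 in H9 and −1.01 in H1), whose mean was 0.0211 CPM in clone 1-10, against 0.143 CPM in wild-type H1. These H1 means rest on 1 read against 6, and both groups were off. Over both H9 clones AIRE averaged 1.67 CPM, against 0.286 CPM in wild-type H9. AIRE was picked as one of the genes most like CCDC169 in pattern over these same libraries.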

How the results depend on the processing

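Of 224 alternative values of the counts, 199 stayed within 1.5 times the main value and 25 did not. With a threshold of 0.5 CPM, 2 genes switched between 9-D and 9-1, 117 between single clone 1-10 and wild type and 72 between single clone 1-5 and wild type, and with 2 CPM these were 2, 23 and 12, against 1, 42 and 21 at 1 CPM. At 0.5 CPM CCDC169 was on in 5 groups and RGN in 6. At 2 CPM DPEP3, with a mean of 1.39 CPM there, would be off in wild-type H9. Leaving out single libraries gave 949 to 2100 genes called in clone 1-10, with 2 to 5 neighbours and 3 to 9 related genes. It gave 25 to 53 genes called between 9-D and 9-1, 12 to 19 neighbours in 9-D, 0 to 1 related gene between 9-D and 9-1, and 1 to 2 genes switching there. With no filter on low counts 1 related gene was called between 9-D and 9-1. The main test did not pair libraries by replicate number. In H1, correlations of same-numbered deviations were 0.223, 0.346 and 0.086, and those of other pairs ranged from −0.29 to 0.131. In H9 they ranged from −0.109 to 0.221 for same numbers and from −0.283 to 0.185 for other pairs. Clone 1-10 replicate 3 correlated best with wild-type replicate 1 (0.131). Whether same-numbered libraries share a batch was not tested. With the number as a block, 2926 genes were called in clone 1-10, with 10 neighbours and 15 related genes, and 1 related gene between 9-D and 9-1; the cause was not tested. A level of 1 CPM is 9.66 to 21 reads in a library, so states near it rest on few reads.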
